A study of Mus musculus with 8 samples.

Results

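Interferon-stimulated genes (ISGs) are the genes that cells switch on when an interferon reaches its receptor, and they were examined here in adipose tissue macrophages as a set of 43 listed mouse genes. The list was taken by gene symbol from the deposited expression tables, and 40 of the 43 genes had a row in both tables, which shared 16136 genes. Mx1, Mx2 and Oas1b had no row, and RefSeq annotates each of these 3 as a transcribed pseudogene of the reference strain, in which Mx1 and Oas1b are known to be nonfunctional. RNA-seq was performed on adhesion-related macrophages (ARMs) and on stromal vascular fraction macrophages (SMs, titled NARM in the labels). Both came from the epididymal white adipose tissue (eWAT) of wild-type C57BL/6J mice. ARMs stay attached to adipocytes during collagenase digestion and were sorted from the adipocyte layer. This layer was first vortexed with beads until the adipocytes lysed, a step the paper does not describe for SMs. Cell type and preparation can therefore not be told apart. Mice were fed a normal diet (ND, labelled chow diet) or a high-fat diet (HFD, 60% fat), which was started at 6 weeks of age and lasted 8 weeks. There were 2 libraries for each of the 4 groups, HFD ARM, HFD SM, ND ARM and ND SM, and each library pooled the cells of 6 HFD mice or 10 ND mice. The libraries held 14508824 to 19040133 counts, the 2 diets were deposited in separate tables, and the labels name no treatment with an interferon.

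Type I interferons, such as interferon beta, bind the receptor IFNAR1/IFNAR2 and activate a transcription factor complex that includes STAT2 and IRF9 and binds the interferon-stimulated response element (ISRE) in the promoters of its targets. Interferon gamma binds IFNGR1/IFNGR2 and acts through the gamma-activated site (GAS) to switch on IRF1 and the interferon-inducible GTPases. The products of the targets sense viral RNA and DNA, degrade or sequester viral RNA, mark proteins with the ubiquitin-like modifier ISG15 and act against intracellular pathogens, and macrophages keep many of them at a low tonic level without infection.

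The promoters of the genes that the results turn on are shown first, because the promoter was not used to choose the list. The windows come from RefSeq (GRCm38.p6) and run from 250 bases before to 50 bases after the annotated start. They were searched on both strands for the ISRE core TTTCNNTTTC (GAAANNGAAA on the other strand) and the GAS core TTCNNNGAA, which reads the same on both strands and can overlap an ISRE core. Capitals mark the ISRE cores, adjoining or overlapping cores being joined in one run. Oasl1 and Irgm1 had the largest differences between the diets, Isg15 had the most cores, Gbp7 had GAS cores beside its ISRE core, and Ifit3 represents the IFIT cluster.
Oasl1, chr5:114922990-114923289, plus strand: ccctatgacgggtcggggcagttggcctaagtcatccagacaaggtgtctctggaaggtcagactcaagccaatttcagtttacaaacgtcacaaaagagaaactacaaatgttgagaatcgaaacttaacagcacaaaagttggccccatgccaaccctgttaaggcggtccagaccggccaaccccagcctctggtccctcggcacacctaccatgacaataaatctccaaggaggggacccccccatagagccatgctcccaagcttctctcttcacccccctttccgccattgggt
Irgm1, chr11:48871371-48871670, minus strand: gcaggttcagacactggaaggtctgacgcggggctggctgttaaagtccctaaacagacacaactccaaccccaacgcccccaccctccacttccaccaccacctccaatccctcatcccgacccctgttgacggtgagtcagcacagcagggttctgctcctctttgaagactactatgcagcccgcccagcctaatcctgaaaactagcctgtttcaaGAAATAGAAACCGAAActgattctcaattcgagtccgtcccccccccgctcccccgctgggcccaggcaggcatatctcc
Isg15, chr4:156200769-156201068, minus strand: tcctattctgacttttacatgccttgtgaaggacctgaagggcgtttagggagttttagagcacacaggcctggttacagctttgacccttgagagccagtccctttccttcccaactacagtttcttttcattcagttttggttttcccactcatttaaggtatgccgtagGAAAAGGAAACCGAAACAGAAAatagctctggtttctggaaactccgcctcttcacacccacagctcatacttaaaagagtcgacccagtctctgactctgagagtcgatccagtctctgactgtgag
Gbp7, chr3:142530086-142530385, plus strand: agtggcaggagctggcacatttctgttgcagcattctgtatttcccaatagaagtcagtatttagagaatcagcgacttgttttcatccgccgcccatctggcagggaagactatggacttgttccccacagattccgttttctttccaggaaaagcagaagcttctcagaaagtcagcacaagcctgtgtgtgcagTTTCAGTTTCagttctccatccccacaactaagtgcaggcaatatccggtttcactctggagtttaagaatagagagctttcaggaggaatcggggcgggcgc
Ifit3, chr19:34583279-34583578, plus strand: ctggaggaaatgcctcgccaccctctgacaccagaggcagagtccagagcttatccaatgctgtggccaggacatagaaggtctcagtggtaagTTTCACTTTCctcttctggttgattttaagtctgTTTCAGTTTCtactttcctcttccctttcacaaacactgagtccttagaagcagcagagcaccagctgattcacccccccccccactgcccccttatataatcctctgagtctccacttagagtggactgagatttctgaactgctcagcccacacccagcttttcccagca
Of the 32 listed genes with a window, 19 (59.4%) held an ISRE core, against 3.99% of the 27025 genes in the RefSeq table, and 9 held 2 or more. A GAS core was found for 9 of the 32 genes (28.1%), against 9.55% of all genes. Counting only the bases before the start left 17 genes with an ISRE core, against 3.46% of all genes. Isg15 held 3 overlapping ISRE cores, Irgm1, Ifit1, Ifit3, Ifit3b, Oas1a, Gbp3, Ifitm3 and Bst2 held 2 each, and these letters were not in the Oasl1 window. A match is a description of the letters and not evidence of binding.

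The ISGs were well measured in these macrophages. In FPKM, a level per length of transcript, the median over the 40 genes of the mean of the 8 libraries was 17.5, against 4.35 over all genes in both tables. The mean was at or above 100 FPKM for 2 genes, from 10 to 100 FPKM for 26, from 1 to 10 FPKM for 11, and below 1 FPKM for Ifi44. The 2 highest were Ifitm3, a membrane protein that blocks virus entry, and Ifi204, a sensor of foreign DNA. The summed level of 10 macrophage markers was 10482 to 12960 FPKM in the 8 libraries, with none called between ARMs and SMs in either diet. The cells were sorted on surface proteins that macrophages carry, and Ptprc, Itgam and Adgre1, which encode such proteins, are among the 10. The sort thus partly fixed this outcome in advance. Between replicates the chi-square of the counts averaged 4.22 to 10.1 per gene, above the value of 1 from counting alone. The labels do not say that the pools were prepared separately, so p-values measure the spread between these libraries, which may be technical.

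**Figure D1:**
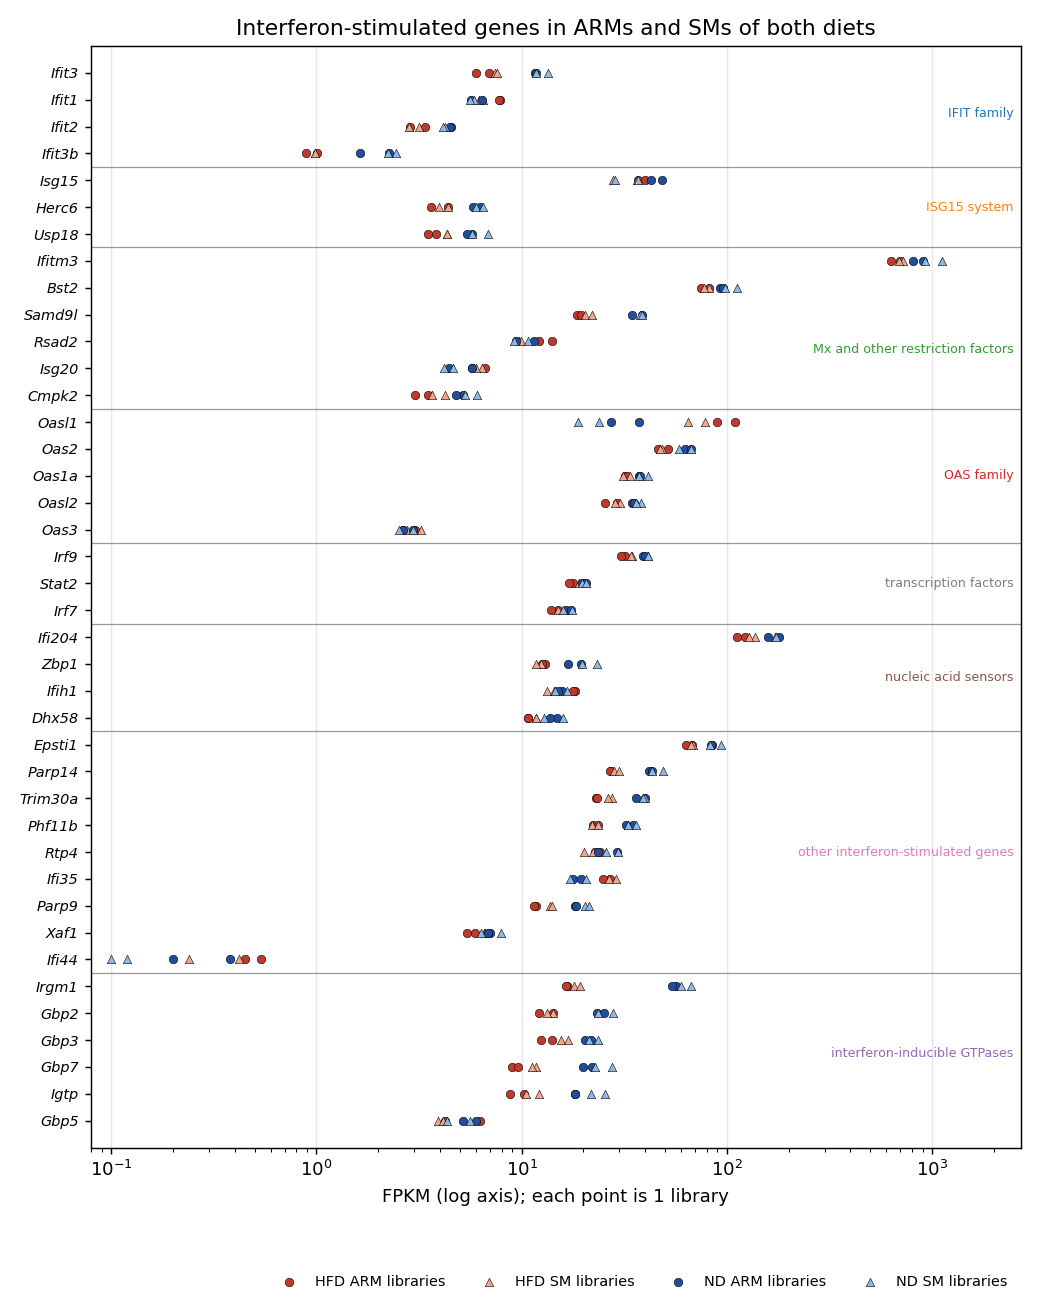
FPKM of the 40 ISGs in each library on a log axis, grouped by role; circles are ARMs, triangles SMs, red shades HFD and blue shades ND. Circles and triangles of a diet lie close together, while the HFD and ND points of Irgm1 (16.5 to 19.3 against 54.2 to 66.8 FPKM) and Oasl1 (64.8 to 110 against 18.9 to 37.2 FPKM) are separate.

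To determine whether ISGs differ between ARMs and SMs, the counts of each diet were compared in a quasi-likelihood fit of edgeR, p-values being Benjamini-Hochberg adjusted over all genes, and calls needed more than 1.5-fold and an adjusted p below 0.05. In HFD mice none of the 40 ISGs was called in either direction, while 4.46% of the 13337 genes tested were called higher in ARMs and 0.292% lower. DESeq2 and limma called none of them either, and at an unadjusted p under 0.05 there were 16 ISGs with edgeR (23.2% of all genes tested), 10 with DESeq2 and 13 of 38 with limma. The log2 fold changes ran from -0.33 to 0.58, and their median was -0.10 against -0.01 over all genes. They were above 0 for 10 ISGs and below 0 for 30, where 48.5% of all genes tested were above 0. For 35 of the 40 ISGs the 95% interval of the log2 fold change lay within 1.5-fold in both directions, as it did for 68% of all genes, so differences beyond 1.5-fold lay outside the intervals of most ISGs. The intervals of Oasl1, Gbp5, Ifi44, Ifit3b and Cmpk2 reached 1.5-fold.

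In ND mice Oasl1 alone was called higher in ARMs out of 39 ISGs tested, and none was called lower, where 3.55% and 0.129% of the 12441 genes tested were called. Ifi44 had too few counts to be tested in ND mice, with 4 to 17 per library. DESeq2 called 1 ISG and limma 0, and at an unadjusted p under 0.05 there were 5 ISGs with edgeR (14.9% of all genes tested), 5 with DESeq2 and 3 with limma. The median log2 fold change was -0.06 against -0.02 over all genes. It was above 0 for 11 ISGs and below 0 for 28, where 46.5% of all genes tested were above 0. The 95% interval lay within 1.5-fold for 34 of the 39 genes (65.4% of all genes), the others being Oasl1, Isg15, Isg20, Igtp and Ifit3b.

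**Figure D2:**
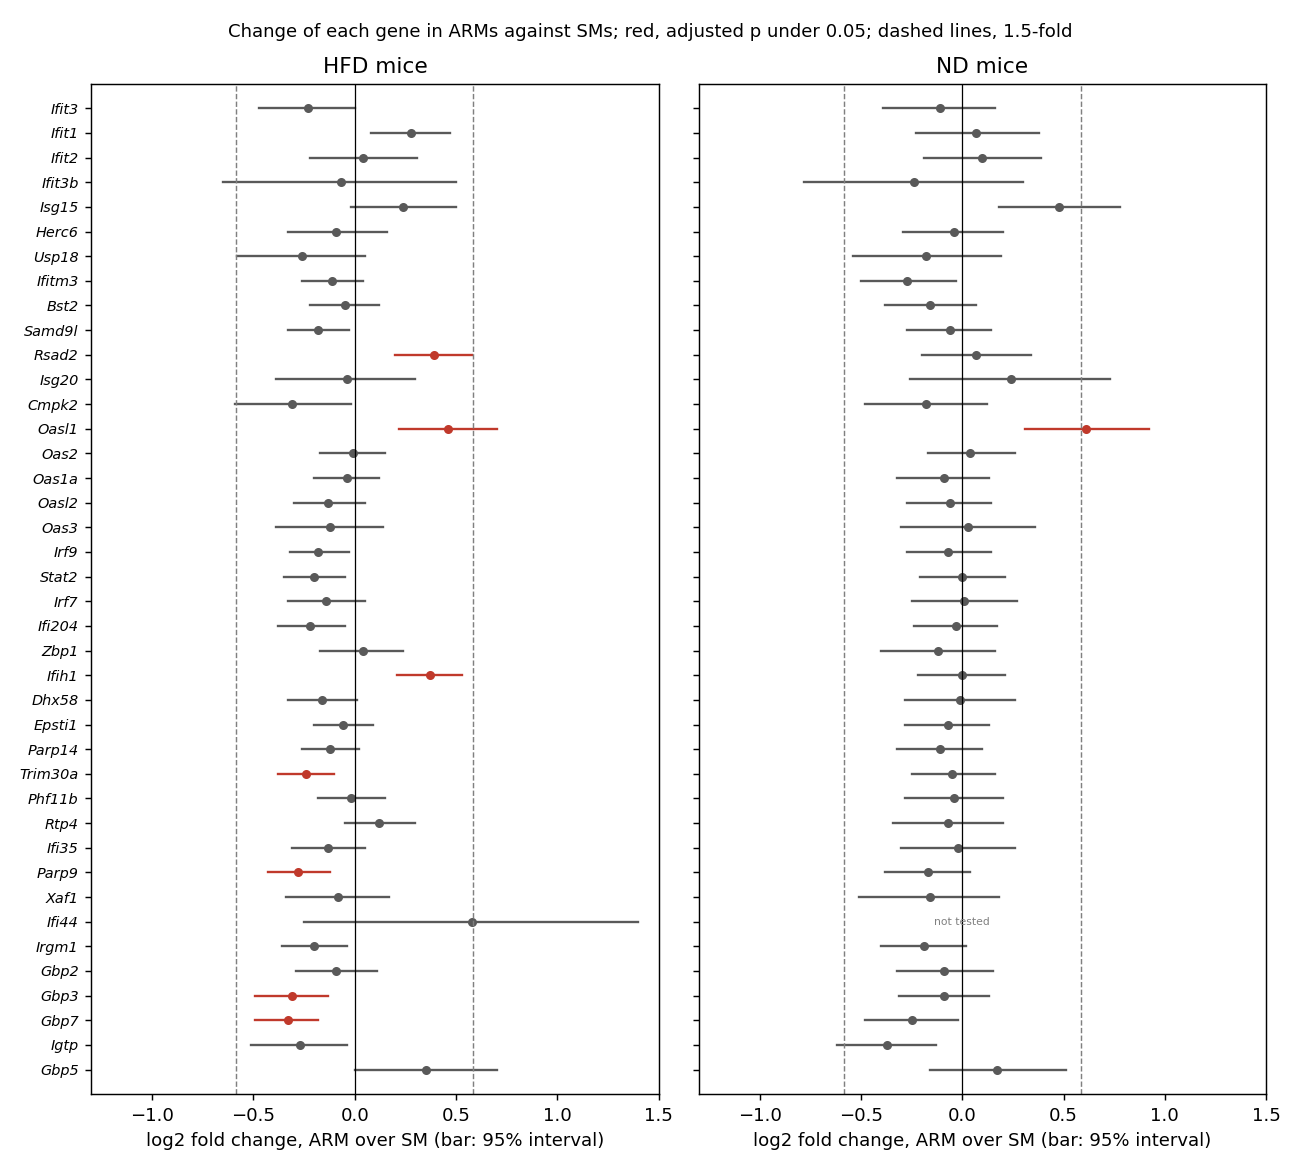
Log2 fold change of ARMs over SMs for each ISG in HFD mice (left) and ND mice (right), with the 95% interval of edgeR's fit; red marks an adjusted p under 0.05 and dashed lines 1.5-fold. Most points lie slightly left of 0, Oasl1 is at 0.46 in HFD mice and 0.61 in ND mice, and Ifi44 was not tested in ND mice.

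Oasl1, an OAS-like protein without synthetase activity that is known to restrain translation of Irf7 mRNA, was the only listed ISG called between ARMs and SMs by edgeR, in ND mice. In HFD mice its level was 110 and 90.0 FPKM in the ARM libraries and 64.8 and 78.7 FPKM in the SM libraries. In ND mice it was 37.2 and 27.3 FPKM in ARMs and 23.8 and 18.9 FPKM in SMs. Both ARM libraries lay above both SM libraries in each diet. The log2 fold change in edgeR's quasi-likelihood fit (Benjamini-Hochberg adjusted) was 0.61 (SE 0.14, adjusted p = 0.0209) with ND and 0.46 (SE 0.11, adjusted p = 0.0271) with HFD, the latter below the 1.5-fold limit. The ND call was lost without ND ARM replicate 1 (0.38), without ND SM replicate 2 (0.45) and with limma (0.57, adjusted p = 0.121). With HFD it was 0.60 and was called without HFD SM replicate 2, and the adjusted p was 0.290 without HFD ARM replicate 1 and 0.0571 without HFD ARM replicate 2, and 0.238 with DESeq2.

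The other members of the OAS family, most of which make the messenger that activates RNase L, had ARM against SM changes close to 0. Oas2 was at 51.9 and 46.2 FPKM in HFD ARMs, 48.5 and 47.5 FPKM in HFD SMs, 62.3 and 66.6 FPKM in ND ARMs and 58.5 and 66.8 FPKM in ND SMs. Oas1a was at 31.9 and 32.5 FPKM in HFD ARMs, 33.9 and 31.1 FPKM in HFD SMs, 37.3 and 37.7 FPKM in ND ARMs and 41.5 and 37.4 FPKM in ND SMs. ARM and SM libraries of Oas2 and Oas1a overlapped in both diets, with log2 fold changes from -0.09 to 0.04. Oasl2, whose product has synthetase activity, was at 29.1 and 25.5 FPKM in HFD ARMs, 30.3 and 28.4 FPKM in HFD SMs, 34.6 and 35.2 FPKM in ND ARMs and 38.3 and 36.0 FPKM in ND SMs, with log2 fold changes of -0.13 and -0.06. Counts of Oas1a and Oas3 in both tables, and of Oasl2 in the HFD table, were estimates and not whole numbers, and their values are less certain.

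In the ISG15 system Isg15 itself, the ubiquitin-like modifier, was the highest member and lay higher in ARMs, without passing the test. Its level was 37.1 and 40.0 FPKM in HFD ARMs against 27.8 and 36.4 FPKM in HFD SMs, and 48.4 and 42.8 FPKM in ND ARMs against 36.8 and 28.5 FPKM in ND SMs. The ARM libraries lay above the SM libraries in both diets, by log2 0.24 (95% interval -0.02 to 0.50) in HFD mice and 0.48 (0.18 to 0.78) in ND mice, with adjusted p of 0.264 and 0.0717 in edgeR's quasi-likelihood fit (Benjamini-Hochberg adjusted). The values rested on single libraries. In ND mice Isg15 was called without ND SM replicate 1 (0.66, adjusted p = 0.0366) and was at 0.31 (adjusted p = 0.471) without ND SM replicate 2. In HFD mice it was at 0.06 (adjusted p = 0.822) without HFD SM replicate 1 and at 0.45 (adjusted p = 0.0115) without HFD SM replicate 2. Usp18, the protease that removes ISG15, was at -0.26 and -0.18 on the log2 scale in HFD and ND mice, and Herc6, the ligase that attaches it, at -0.09 and -0.04.

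The transcription factors of the pathway were close to even between ARMs and SMs. Irf9, the DNA-binding subunit of the type I complex, was at 32.0 and 30.4 FPKM in HFD ARMs, 34.6 and 34.3 FPKM in HFD SMs, 39.0 and 39.8 FPKM in ND ARMs and 41.1 and 41.3 FPKM in ND SMs. The ARM libraries lay below the SM libraries in both diets, by log2 -0.18 (95% interval -0.32 to -0.03) and -0.07 (-0.27 to 0.14), and neither passed. Stat2 was at -0.20 and 0.00, and Irf7, which amplifies interferon production, at -0.14 and 0.01, on the log2 scale in HFD and ND mice.

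Among the nucleic acid sensors, Ifi204 was at 123 and 112 FPKM in HFD ARMs, 138 and 129 FPKM in HFD SMs, 179 and 158 FPKM in ND ARMs and 171 and 174 FPKM in ND SMs. It did not pass the test in either diet (log2 -0.22 with HFD and -0.03 with ND). Of the restriction factors, Ifitm3 was at 697 and 634 FPKM in HFD ARMs, 719 and 691 FPKM in HFD SMs, 900 and 809 FPKM in ND ARMs and 1113 and 928 FPKM in ND SMs. The ND ARM libraries of Ifitm3 lay below the ND SM libraries by log2 -0.27 (95% interval -0.50 to -0.03), with an adjusted p of 0.241 in edgeR's quasi-likelihood fit (Benjamini-Hochberg adjusted). Bst2, the tether of budding virions, was at 82.3 and 74.5 FPKM in HFD ARMs, 81.5 and 77.5 FPKM in HFD SMs, 92.7 and 96.0 FPKM in ND ARMs and 112 and 97.7 FPKM in ND SMs, and neither diet passed.

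Of the less well characterized ISGs, Epsti1 was at 67.6 and 63.6 FPKM in HFD ARMs, 68.7 and 67.2 FPKM in HFD SMs, 84.8 and 83.5 FPKM in ND ARMs and 83.3 and 93.8 FPKM in ND SMs. Parp14, an ADP-ribosyltransferase of macrophages, was at 27.4 and 27.0 FPKM in HFD ARMs, 28.2 and 30.0 FPKM in HFD SMs, 42.0 and 43.2 FPKM in ND ARMs and 43.0 and 48.8 FPKM in ND SMs. The log2 fold changes of both genes ran from -0.12 to -0.06 and none passed. All 8 genes of this role group tested in ND mice were below 0, between -0.17 and -0.02, where 46.5% of all genes tested were above 0.

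At an adjusted p under 0.05 without the 1.5-fold limit, 3 ISGs were higher in HFD ARMs (6.53% of all genes) and 4 were lower (3.02%), and these were picked out after their values were seen. Higher were Ifih1 (log2 0.37, adjusted p = 0.00951), which encodes the RNA sensor MDA5, Rsad2 (0.39, adjusted p = 0.0166), the antiviral enzyme viperin, and Oasl1, all in edgeR's quasi-likelihood fit (Benjamini-Hochberg adjusted). Lower were Gbp7 (-0.33, adjusted p = 0.0124), Gbp3 (-0.31, adjusted p = 0.0400), Parp9 (-0.28, adjusted p = 0.0339) and Trim30a (-0.24, adjusted p = 0.0390) in the same test. Ifih1 was at 18.3 and 17.8 FPKM in HFD ARMs against 13.3 and 14.4 FPKM in HFD SMs, and at 15.8 and 15.0 FPKM in ND ARMs against 14.6 and 16.6 FPKM in ND SMs. Its groups were apart in HFD mice and overlapped in ND mice. None of the 7 passed without HFD ARM replicate 1 or without HFD ARM replicate 2, when the remaining ARM library is assumed to vary like the SM libraries, and none passed without the filter on low counts. DESeq2 passed Gbp7, Rsad2 and Ifih1, limma passed Rsad2, Ifih1 and Oasl1 and none of the 4 lower ones, and 1 fit of all 8 libraries passed Ifih1 alone. Gbp3 and Trim30a did not pass with library totals or upper-quartile factors. In ND mice Oasl1 was the 1 listed ISG that passed without the limit, where 4.28% of all genes were higher and 0.458% lower.

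Whether the ARM against SM change differed between diets was tested as an interaction in one fit of the 8 libraries. None of the 40 ISGs passed, against 0.165% of all genes, and at an unadjusted p under 0.05 there was 1 with edgeR and 1 with DESeq2. The smallest adjusted p in edgeR's quasi-likelihood fit (Benjamini-Hochberg adjusted) was 0.366, for Ifih1, whose log2 fold change was 0.36 higher in HFD mice. For Oasl1 the difference was -0.17 (adjusted p = 0.943), so a call in only ND mice is not shown to be a difference between diets.

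The level of many ISGs was lower in HFD macrophages than in ND macrophages, in both ARMs and SMs. In ARMs 30 of the 40 ISGs were lower in both HFD libraries than in both ND libraries and 7 were higher, where 37.5% of all 16136 genes were lower and 27.5% higher. In SMs 29 were lower and 5 higher, where 40.1% and 26.8% of all genes were. Among the 10858 genes of mean FPKM 1 or more, the level range of 39 of the ISGs, 49% were lower in HFD ARMs and 53% in HFD SMs. The median log2 ratio of HFD to ND was -0.38 in ARMs and -0.38 in SMs over the ISGs, and -0.13 and -0.17 over the genes of mean FPKM 1 or more. A difference of at least 1.5-fold was seen for 14 ISGs lower in HFD ARMs, against 9.21% of those 10858 genes, and for 10 lower in HFD SMs, against 10.5%. Oasl1 was higher by at least 1.5-fold in HFD ARMs and SMs, against 7.93% and 8.08% of those genes, and Ifi44, which was also at least 1.5-fold higher in both, had a mean below 1 FPKM and is not among them.

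These differences carry no test. The 2 tables differed in their counts and implied lengths, and whether they were processed alike is not known. Counts were not whole numbers for 39.1% of genes in the HFD table and 11.8% in the ND table (22 and 8 of the 40 ISGs). The HFD to ND ratio of the implied transcript lengths had a median of 1.06 (0.978 to 1.25 over the ISGs). Diet, table, depth and pool size cannot be told apart. In TMM-scaled CPM (counts relative to the library's total, with no length), the median log2 ratios of the ISGs were -0.34 in ARMs and -0.29 in SMs. Over the genes of mean CPM 1 or more they were -0.04 and -0.05. In TPM the medians of the ISGs were -0.35 and -0.31, against -0.10 and -0.08 over the genes of mean TPM 1 or more. In bulk libraries a smaller share of cells that express a gene and less RNA per cell cannot be told apart. The summed levels of some other lists were lower in the HFD libraries too. The sum of 6 monocyte markers was 196 to 227 FPKM with HFD and 299 to 312 FPKM with ND. That of the 10 macrophage markers was 10482 to 11203 and 12566 to 12960 FPKM. The 7 plasmacytoid dendritic cell markers with a row, which include the ISG Bst2, summed to 132 to 147 and 162 to 177 FPKM. The median log2 ratio of HFD to ND over these 7 was -0.05 in ARMs and 0.61 in SMs, so sum and median pointed different ways in SMs. Only 4 of the 7 had enough counts to be tested in ND mice, and 1 was at 0 in ND SM replicate 1. The part of these lists in the lower ISG levels was not tested.

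The interferon-inducible GTPases had the lowest HFD to ND ratios of the role groups, with median log2 ratios of -0.91 in ARMs and -0.98 in SMs. Without overlap 5 of 6 were lower in HFD ARMs and 6 of 6 in HFD SMs. Of the genes of mean FPKM 1 or more, 49% and 53% were. Irgm1, a regulator of autophagy and of defence against vacuolar pathogens, was at 16.6 and 16.5 FPKM in HFD ARMs, 18.1 and 19.3 FPKM in HFD SMs, 56.6 and 54.2 FPKM in ND ARMs and 59.8 and 66.8 FPKM in ND SMs. Every HFD library was thus below every ND library, the ND mean being 3.35 times the HFD mean in ARMs and 3.39 times in SMs, and the log2 ratio in CPM was -1.66 in both cell types. The Irgm1 counts were whole in the ND table and not in the HFD table, so a difference in how the counts were made could not be told apart from diet. Gbp7, a guanylate-binding protein, was at 9.03 and 9.63 FPKM in HFD ARMs, 11.8 and 11.3 FPKM in HFD SMs, 22.1 and 19.9 FPKM in ND ARMs and 22.7 and 27.5 FPKM in ND SMs. The log2 ratios of HFD to ND were -1.17 and -1.12 for Gbp7, -0.94 and -1.07 for Igtp and -0.87 and -0.90 for Gbp2 in ARMs and SMs, and -0.09 and -0.30 for Gbp5. Counts of all 6 GTPases were whole in the ND table and not in the HFD table. Samd9l, an antiviral restriction factor with whole counts in both tables, had log2 ratios of -0.93 and -0.85, and Parp14, also whole in both, of -0.65 and -0.66.

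Oasl1 stood at the other end, 3.11-fold higher in HFD ARMs than in ND ARMs and 3.36-fold higher in HFD SMs than in ND SMs. Its 4 HFD libraries, at 64.8 to 110 FPKM, lay above its 4 ND libraries, at 18.9 to 37.2 FPKM, and its counts were whole in both tables. Ifi35, Isg20 and Ifit1 were also higher in every HFD library than in every ND library of the same cell type, with log2 ratios of 0.48 and 0.56, 0.29 and 0.49, and 0.38 and 0.14 in ARMs and SMs. Ifi44 was higher as well, at 0.24 to 0.54 FPKM against 0.10 to 0.38 FPKM, from 4 to 29 counts. For some ISGs the direction depended on the scale, since Isg15 was at log2 -0.24 in ARMs in FPKM and 0.01 in CPM, with an implied length ratio of 1.21. For Ifitm3 the ARM values were -0.36 and -0.06, with a length ratio of 1.25, and for Bst2 -0.27 and -0.01, with 1.20. Ifit3 and Ifit3b are near-identical copies whose counts were not whole in either table, and their log2 ratios, -0.85 and -0.75 for Ifit3 and -1.04 and -1.23 for Ifit3b, are uncertain.

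**Figure D3:**
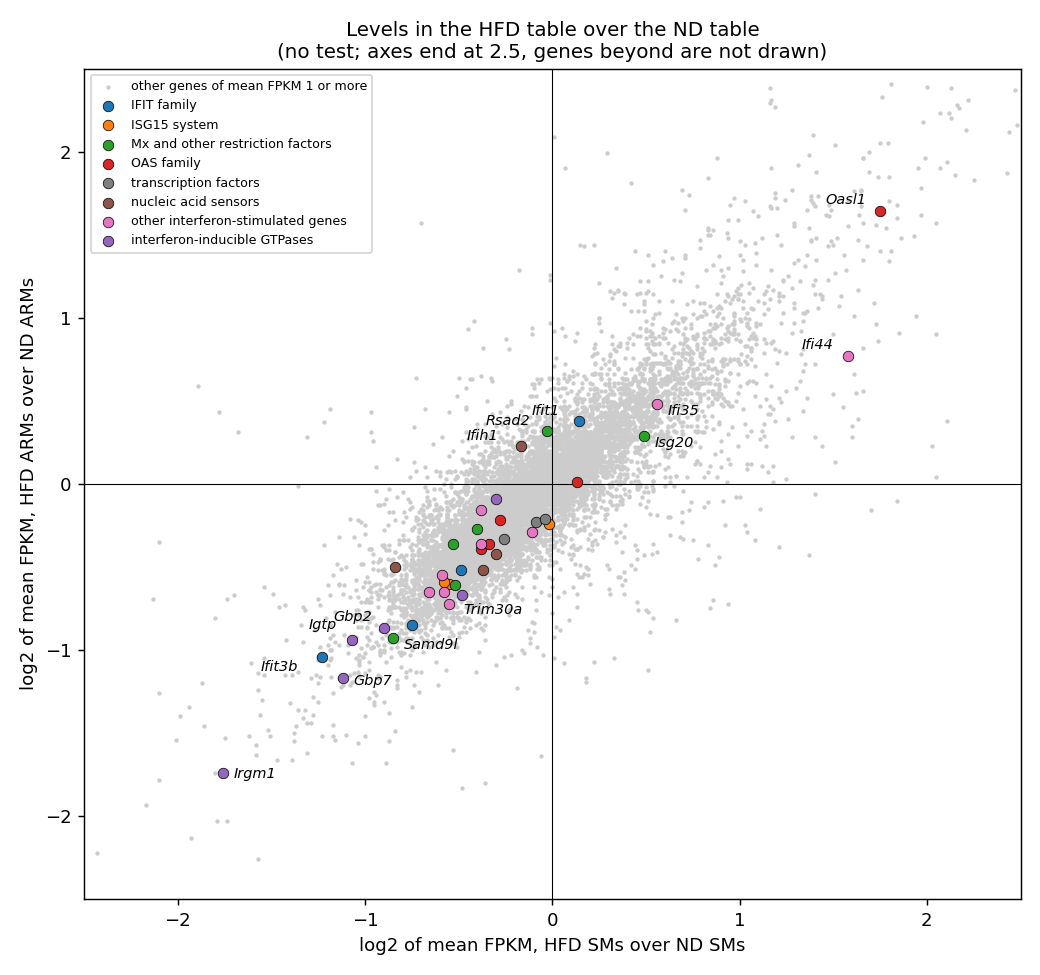
Log2 ratio of mean FPKM in HFD over ND, for SMs on the horizontal and ARMs on the vertical axis; grey points are genes of mean FPKM 1 or more and coloured points the ISGs by role. Irgm1 (-1.76 and -1.74) and Oasl1 (1.75 and 1.64) lie at opposite ends, and most ISGs lie below 0 on both axes.

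The 32 ISGs with a promoter window were then set side by side by whether the window held an ISRE core. The median log2 fold change of ARMs over SMs in HFD mice was -0.09 for the 19 with a core and -0.09 for the 13 without. The median log2 ratio of HFD to ND was -0.36 and -0.33 in ARMs and -0.48 and -0.26 in SMs. Of these 32, Oasl1 had the highest HFD to ND ratio and no core match, and Irgm1 had the lowest ratio and 2 cores. Nothing about the binding of any factor follows from these letters.

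The genes around the ISGs were then examined, beginning with the ligands. Of 21 interferon genes, 11 had a row in either table and only Ifnb1, which encodes interferon beta, had enough counts to be tested in each diet. Ifnb1 was at 7.64 and 7.84 FPKM in HFD ARMs, 3.03 and 4.31 FPKM in HFD SMs, 3.08 and 1.89 FPKM in ND ARMs and 0.54 and 0.51 FPKM in ND SMs, from 105, 107, 43, 61, 31, 17, 5 and 5 counts. ARMs lay above SMs in both diets and HFD libraries above ND libraries of the same cell type. It was called higher in ARMs in HFD mice (log2 1.05, SE 0.21, adjusted p = 0.0115) and in ND mice (2.22, SE 0.51, adjusted p = 0.0192) in edgeR's quasi-likelihood fit (Benjamini-Hochberg adjusted). In the same fit 0 and 1 of the listed ISGs were called higher in HFD and ND mice, and 3 and 3 of a further list of 51 ISGs. The shares over all genes were 4.46% and 3.55%. The Ifnb1 calls rest on few counts. DESeq2 gave adjusted p of 0.0548 and 0.185, and the calls were lost without HFD ARM replicate 1 or 2 (adjusted p = 0.107 and 0.130), without ND ARM replicate 1 (0.108) and without ND SM replicate 1 or 2 (0.237 and 0.181). Ifng, the type II interferon, had 0 to 2 counts per library.

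No receptor gene passed between ARMs and SMs. In all 8 libraries Ifnar1 was at 32.6 to 41.8 FPKM, Ifnar2 at 82.7 to 101 FPKM, Ifngr1 at 60.1 to 80.4 FPKM, Ifngr2 at 24.7 to 38.4 FPKM and Il10rb, a subunit of the lambda receptor, at 107 to 127 FPKM. Their log2 fold changes ran from 0.00 to 0.15 in HFD mice and from -0.05 to 0.08 in ND mice. Ifnlr1, the specific subunit of the lambda receptor, was at 0 to 0.13 FPKM. Irf1, a factor best known as a target of interferon gamma, was at 107 and 125 FPKM in HFD ARMs, 131 and 134 FPKM in HFD SMs, 228 and 227 FPKM in ND ARMs and 285 and 300 FPKM in ND SMs. ARMs were below SMs in both diets, by log2 -0.22 (adjusted p = 0.0974) and -0.36 (adjusted p = 0.0420) in edgeR's quasi-likelihood fit (Benjamini-Hochberg adjusted), under the 1.5-fold limit. The HFD to ND log2 ratio of Irf1 was -0.97 in ARMs and -1.14 in SMs. Over the receptors, JAK-STAT genes, regulatory factors and upstream sensing genes together, none was called in either diet by edgeR or limma, which tested 34, or by DESeq2, which tested 36. At an unadjusted p under 0.05 there were 8 in HFD and 5 in ND mice by edgeR, 5 and 5 by DESeq2 and 11 and 6 by limma. The difference between diets passed for 0 of 34 by edgeR and for 1 of 36 by DESeq2. That gene was Irf4, a regulatory factor named here after its values were seen, whose difference was -0.53 in edgeR (95% interval -0.76 to -0.29, adjusted p = 0.0865).

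**Figure D4:**
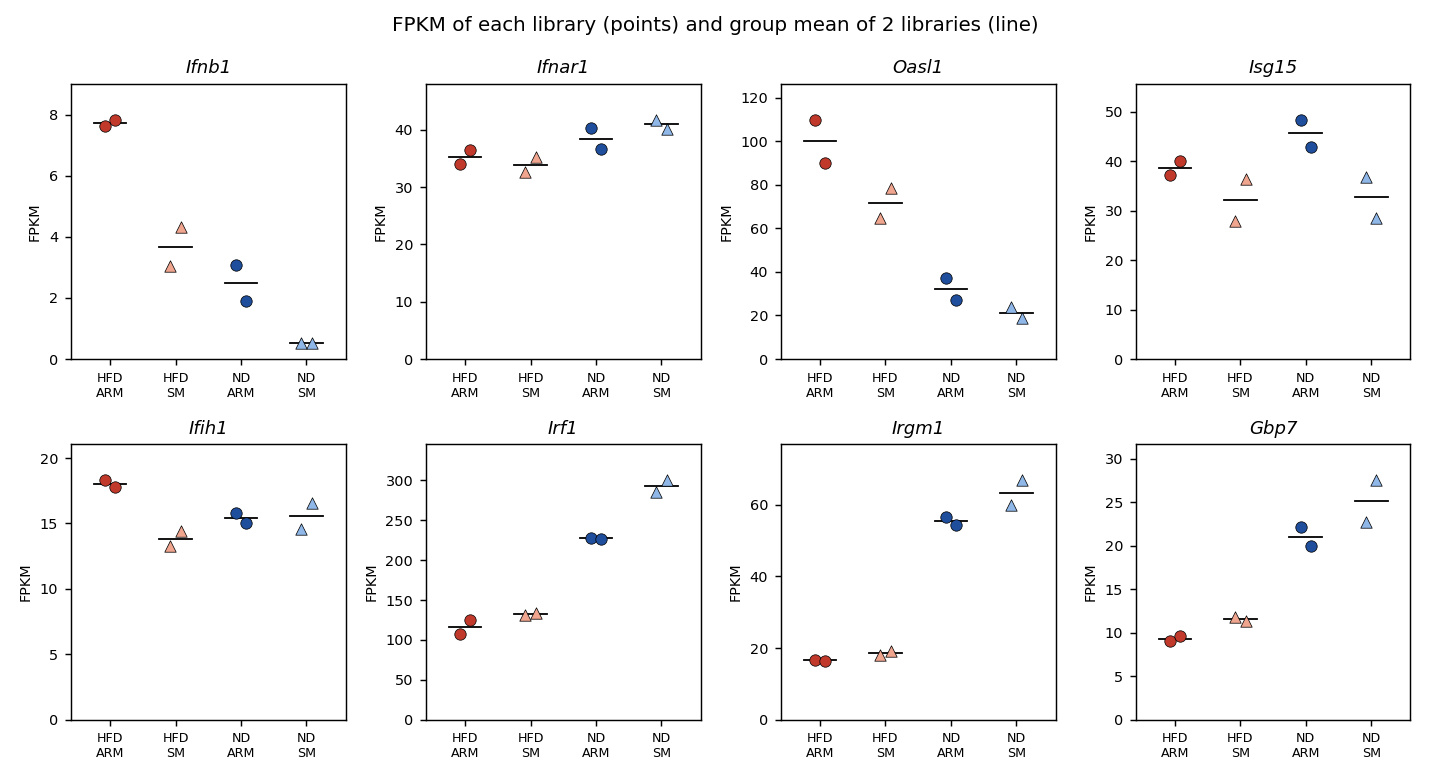
FPKM of Ifnb1, its receptor subunit Ifnar1 and 6 interferon target genes in each library, with a line at the mean of the 2 libraries of a group. Every axis starts at 0. Ifnb1 and Oasl1 are higher in ARMs than SMs and in HFD than ND, and Irf1, Irgm1 and Gbp7 are lower in the HFD libraries.

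A further list of 51 ISGs had 3 called higher and none lower in each diet by edgeR, against 4.46% and 3.55% of all genes called higher in HFD and ND mice. At an unadjusted p under 0.05 there were 17 in HFD and 9 in ND mice by edgeR, and DESeq2 called 3 and 3 and limma 2 and 3 of them. The median log2 fold change of the list was -0.04 in HFD and -0.01 in ND mice, and at an adjusted p under 0.05 of any size 3 were higher and 4 lower in HFD mice. Cxcl9, a T cell chemokine, was higher in ARMs in both diets (log2 1.10, adjusted p = 0.00209, and 1.21, adjusted p = 0.00371), as was Ifi205, a relative of Ifi204 (0.64, adjusted p = 0.00308, and 1.28, adjusted p = 0.000166), in edgeR's quasi-likelihood fit (Benjamini-Hochberg adjusted). Helz2, a helicase, was called in HFD mice (0.88, adjusted p = 0.000297), and Cxcl10, the chemokine that shares a receptor with Cxcl9, in ND mice (0.78, adjusted p = 0.00182), in the same fit. In the other diet both went the same way, Helz2 by 0.56 in ND mice (adjusted p = 0.0644) and Cxcl10 by 0.31 in HFD mice (adjusted p = 0.0536). The difference between diets passed for 0 of the 51, so calls in 1 diet are not shown to be diet differences. With limma on log2(FPKM + 1) the HFD call of Helz2 was lost through its fold (log2 0.57). Cxcl10 was at 255 and 281 FPKM in HFD ARMs, 193 and 232 FPKM in HFD SMs, 197 and 151 FPKM in ND ARMs and 112 and 90.0 FPKM in ND SMs. Its group means ran in the order of Ifnb1 and Oasl1, with HFD SM and ND ARM libraries overlapping for Cxcl10 and Ifnb1 and not for Oasl1. This order was seen after the fact, and how many genes share it was not counted. Of the 40 listed ISGs, 30 were lower and 7 higher in HFD ARMs than in ND ARMs. The HFD to ND log2 ratio of Cxcl10 was 0.62 in ARMs and 1.07 in SMs. The Cxcl9 call was lost without HFD ARM replicate 2 (adjusted p = 0.0508) and without ND ARM replicate 2 (0.0996). The HFD call of Ifi205, a member of a family of similar genes, was lost without HFD ARM replicate 1 (0.0539) or 2 (0.0760) and, through its fold, without HFD SM replicate 2 (log2 0.53). By diet, 38 of the 51 were lower in HFD ARMs and 36 in HFD SMs. Of all genes 37.5% and 40.1% were lower, and of the genes of mean FPKM 1 or more 49% and 53%. The median log2 ratios of the list were -0.38 and -0.38, beside -0.13 and -0.17 over the genes of mean FPKM 1 or more.

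Markers of other cells moved with the ARM libraries. Of 10 adipocyte markers, 9 were called higher in HFD ARMs and 8 in ND ARMs, with a summed level of 455 and 519 FPKM in HFD ARMs, 165 and 127 FPKM in HFD SMs, 227 and 349 FPKM in ND ARMs and 125 and 173 FPKM in ND SMs, and no marker at 0. Of 8 endothelial markers 7 were called higher in HFD ARMs and 1 in ND ARMs, the sums being 35.7 to 37.5 against 11.2 to 16.3 FPKM with HFD and 10.3 to 20.3 against 8.61 to 9.96 FPKM with ND. Of 8 fibroblast and progenitor markers 5 and 6 were called, with sums of 158 to 197 against 104 to 118 FPKM and 210 to 305 against 73.1 to 100 FPKM. Of 6 mesothelial markers 0 and 5 were called, with sums of 11.3 to 15.8 against 7.20 to 13.4 FPKM and 17.0 to 22.6 against 5.16 to 6.77 FPKM, and none of these markers was at 0 in any library. Their part in the higher Oasl1, Ifnb1, Cxcl9, Cxcl10, Helz2 and Ifi205 levels of ARMs was not tested. Of the plasmacytoid dendritic cell markers, cells known for interferon production, none was called in either diet. The marker Siglech was at 8.91 to 11.7 FPKM in the HFD libraries and 17.2 to 28.6 FPKM in the ND libraries. Over the 7 markers of this list with a row, the median log2 ratio of HFD to ND was -0.05 in ARMs and 0.61 in SMs. T and NK cell markers summed to 4.05 to 5.94 FPKM and B cell markers to 3.66 to 5.85 FPKM in the 8 libraries. Single calls were made for Cd4 (log2 0.88) and the monocyte marker Chil3 (0.85), higher in HFD ARMs, and for the neutrophil marker S100a9 (-1.43), lower in ND ARMs.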

How the data were processed

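RNA-seq libraries of sorted ARMs and SMs were grouped by the sample titles and diet labels. For each diet the authors deposited 1 table with an estimated count, an FPKM and a TPM per gene and library; the labels name the build mm10, while the aligner, counting program and annotation are not given in the sources used here. The 43 members and all lists were chosen with earlier results of these data known. The estimated counts, rounded, were fitted over all genes of each table with edgeR 4.0.16 (TMM, filterByExpr, quasi-likelihood test, Benjamini-Hochberg adjustment; R 4.3.3). Calls needed more than 1.5-fold and an adjusted p below 0.05. The interaction of cell type and diet was fitted over the 8 libraries. Levels by diet were compared in FPKM, TPM and TMM-scaled CPM without a test. With 2 libraries against 2, an exact permutation test cannot give a two-sided p under 0.333. Members called were given in full, with those of highest mean FPKM until 12 were shown, and from the pathway lists the receptors, Irf1, Ifnb1, Ifng and every gene called; an item that this rule also names is not reported here. Alternatives used other scaling factors and filters, DESeq2 1.42.0, limma 3.58.1 on log2(FPKM + 1) and log2(FPKM + 0.1), a replicate block, and each library left out. The edgeR steps were tested on simulated data, and the DESeq2 and limma steps were not. Promoter windows were matched by gene to RefSeq GRCm38.p6.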

Additional observations from a re-analysis of the deposited data

Results flagged for a closer look

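Zbp1, a sensor of left-handed nucleic acids, was picked by the order of its libraries alone, in that its ARM libraries (13.0 and 12.6 FPKM) lay above its SM libraries (12.4 and 11.7 FPKM) in HFD mice and below them in ND mice (19.4 and 16.9 against 23.3 and 19.8 FPKM). Its log2 fold change was 0.04 (95% interval -0.17 to 0.24) in HFD mice and -0.12 (-0.40 to 0.16) in ND mice, and neither passed (adjusted p = 0.870 and 0.774 in edgeR). The difference between diets in its log2 fold change was 0.14 and did not pass the interaction test of edgeR's quasi-likelihood fit, Benjamini-Hochberg adjusted (adjusted p = 0.937). No group had enough libraries for a test of single outlying libraries.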

How the results depend on the processing

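The median log2 fold change of the ISGs in HFD mice, -0.10, was -0.07 with library totals, -0.08 with upper-quartile factors and -0.08 with limma on log2(FPKM + 1) without a filter, and between -0.15 and -0.04 when single libraries were left out, against -0.08 to -0.05 in ND mice. The number called higher in ND ARMs was 0 with limma on log2(FPKM + 1), with and without a filter, and on log2(FPKM + 0.1), and between 0 and 2 when single libraries were left out, against 0 to 1 in HFD ARMs. None was called lower and no interaction passed under any alternative run. Over all results and alternatives together 1419 values kept their call or stayed within the replicate spread, 58 moved, 29 lost and 4 gained a call and 0 reversed, and the cause was not tested. The replicate numbers of ARMs and SMs come with no shared source in the labels, and the deviations of same-numbered libraries correlated at -0.028 in HFD and 0.221 in ND mice, and with 2 pairs per diet these values do not settle whether the numbers pair the libraries, which were not taken as pairs. With a replicate block 0 ISGs were called in HFD mice and 1 in ND mice. At an adjusted p under 0.05 of any size 3 were then higher and 3 lower in HFD mice. In ND mice 2 were higher and 3 lower with the block, where 1 was higher and 0 lower without it. The share of all genes passing with the block was not set beside these counts, so they show nothing particular to the ISGs. Isg15 in ND mice was at adjusted p = 0.000869 with the block and 0.0717 without it. Depth limits Ifi44, Ifnb1 in ND SMs and Ifng, and 2 libraries per group limit every comparison.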
